A study of Mus musculus with 18 samples.

Results

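The genes described here are 10 members of the Hippo pathway, measured in the ovaries of young female mice whose mothers ate a high-methionine or a control diet. They were taken by gene symbol, and all 10 were found among the 30172 symbols of the deposited tables. By role they are the transcriptional co-activators Yap1 and Wwtr1 (which encodes TAZ), the DNA-binding partners Tead1, Tead2, Tead3 and Tead4, the kinases Lats1 and Lats2, and the regulators Wwc1 (KIBRA) and Trp53bp2 (ASPP2). Wwc1 and Trp53bp2 are among the genes that the study chose from these same samples for its Pd21 heatmap, so their direction on that day is not independent evidence.

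The Hippo pathway is a kinase cascade that restrains tissue growth. When it is active, the LATS kinases phosphorylate YAP and TAZ, which are then held in the cytoplasm or degraded, and when it is inactive YAP and TAZ enter the nucleus and switch on genes together with TEAD proteins, which contact the DNA. KIBRA is a scaffold that promotes LATS activation, ASPP2 is a junction-associated protein that binds p53 and also YAP, and in the ovary the pathway is known for its part in holding back follicle growth. These steps act largely on proteins, and transcript levels do not report phosphorylation or location.

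All libraries were made from whole ovaries of untreated wild type F1 offspring on the C57BL/6J background. The dams of the F1-HHcy groups were given food with 3% methionine before mating and until weaning. Those of the F1-Control groups had normal chow, for which the methods of the study give a standard diet with a lower, set methionine content. The labels give 4 weeks for the period before mating, whereas the methods of the study give a longer one. Ovaries were taken on postnatal day 3 (Pd3), 7 (Pd7) or 21 (Pd21), with 3 libraries in each of the 6 groups of diet and day, and by the labels the Pd3 and Pd7 ovaries were handled as batch 1 and those of Pd21 as batch 2. Every diet comparison therefore lies within a batch, while for Pd21 against another day age and batch cannot be told apart. Whether a library held 1 pup or several is not given, and nothing says that the libraries of a group came from separate litters, so p-values measure only the spread between these libraries, which may be technical.

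The levels are FPKM, fragment counts scaled by transcript length and by sequencing depth. Comparisons between genes rest on the length that the deposited values imply for each gene, and the annotation behind it is not given. For Yap1 the implied length is 4482 bases, beside 9257 exon bases in GENCODE M21, and for Wwtr1 it is 4784 beside 4779. Each library held between 33630304 and 39398922 fragments, and Wwc1, a low member, was measured with 458 to 2122 fragments per library. Ovarian identity was clear in every group. Foxl2, a granulosa cell factor, had group means from 51.8 to 121 FPKM, and Zp3, an oocyte coat protein gene, from 170 to 508 FPKM. Markers of the adjoining oviduct were also present and differed between the diets at Pd21, as given below beside the genes they moved with. In whole ovaries, fewer cells of a type and less RNA per cell cannot be told apart.

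Promoter windows of 300 bases, 250 before and 50 after an annotated start, were found for 8 of the 10 members in RefSeq (GRCm38.p6). They are shown because TEAD proteins bind the short motif GGAATG, which reads CATTCC on the other strand, and several genes of the pathway carry it near their own start. The motif was in windows of Yap1, Wwtr1, Lats2 and Tead3, and in 14.7% of the 32851 windows of all genes. The 30 bases around it are given 5′ to 3′ on the strand of the gene, with the motif in capitals.
Yap1: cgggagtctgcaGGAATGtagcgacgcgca
Wwtr1: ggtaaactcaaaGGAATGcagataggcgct
Lats2: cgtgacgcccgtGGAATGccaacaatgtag
Tead3: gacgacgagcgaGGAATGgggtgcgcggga
These stretches lie on the minus strand at chr9:8004720-8004749, chr3:57576029-57576058, chr14:57746102-57746131 and chr17:28350970-28350999. Relative to the start used for the window, the motif began at position -141 in Yap1, at -136 in Wwtr1 (-170 from a second start), at 5 in Lats2 and at -182 in Tead3, where another window held 3 further matches. No match was in the windows of Tead2, Lats1, Wwc1 or Trp53bp2. A match is a description of the letters and no evidence of binding.

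Wwc1 and Trp53bp2 are the members whose levels differed most between the diets at Pd21, and the 250 bases before their starts are given for that reason. Capitals mark the GC box GGGCGG, which reads CCGCCC on the other strand and was found in 35.7% of all windows. The Wwc1 stretch, on the minus strand at chr11:35980528-35980777, held 1 of them, and that of Trp53bp2, on the plus strand at chr1:182408917-182409166, held 6.
Wwc1: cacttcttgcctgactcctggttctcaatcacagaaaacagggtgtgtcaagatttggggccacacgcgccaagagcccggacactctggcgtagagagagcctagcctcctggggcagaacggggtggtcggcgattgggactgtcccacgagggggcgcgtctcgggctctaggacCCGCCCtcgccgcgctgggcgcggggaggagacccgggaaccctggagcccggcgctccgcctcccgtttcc
Trp53bp2: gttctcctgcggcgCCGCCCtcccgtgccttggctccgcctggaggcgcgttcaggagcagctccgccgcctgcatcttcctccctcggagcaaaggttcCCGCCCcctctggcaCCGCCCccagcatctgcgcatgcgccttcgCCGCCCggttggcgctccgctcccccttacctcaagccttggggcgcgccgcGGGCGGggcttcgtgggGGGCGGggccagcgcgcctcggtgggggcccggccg

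The co-activators were the most abundant members together with Tead2, and their levels differed little between the diets. Yap1 (chr9:7931999-8004638) had 34.1, 39.4 and 38.2 FPKM in the F1-Control libraries at Pd3 and 41.1, 37.6 and 37.1 FPKM in the F1-HHcy libraries. At Pd7 it had 35.7, 29.6 and 35.1 FPKM in controls and 35.8, 32.4 and 46.9 FPKM in F1-HHcy, and at Pd21 53.0, 48.1 and 52.1 FPKM against 56.9, 49.7 and 55.9 FPKM. The groups of the diets overlapped on each day, and all 6 libraries of Pd21 were above all 12 of the earlier days. Exons of Yap1 overlap those of Gm20416 on the other strand in GENCODE M21, and the strand setting of the counting is not given in the sources used here.

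Wwtr1 (chr3:57455644-57575910) had its lowest means at Pd7 on both diets. It had 40.5, 48.6 and 37.4 FPKM in the F1-Control libraries at Pd3 and 30.3, 34.0 and 41.5 FPKM in F1-HHcy. At Pd7 the values were 35.8, 28.3 and 28.0 FPKM in controls and 28.2, 25.0 and 29.4 FPKM in F1-HHcy, and at Pd21 29.9, 40.2 and 34.1 FPKM against 35.6, 36.5 and 38.0 FPKM. The mean ratio of Wwtr1 to Yap1 was 1.13 ± 0.135 (SD, n = 3) in F1-Control at Pd3, and between 0.680 and 0.920 in the other groups. By the implied lengths, TAZ transcripts thus outnumbered those of YAP on average only in the youngest control ovaries. There, 1 of the 3 libraries was also below 1 (0.979). With the longer exon length of Yap1 the ratio would be higher in every group, so which groups stand above 1 depends on the annotation. In the order of the group means, all neighbours overlapped for Wwtr1, from F1-Control Pd3 (42.2 FPKM) down to F1-HHcy Pd7 (27.5 FPKM).

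**Figure D1:**
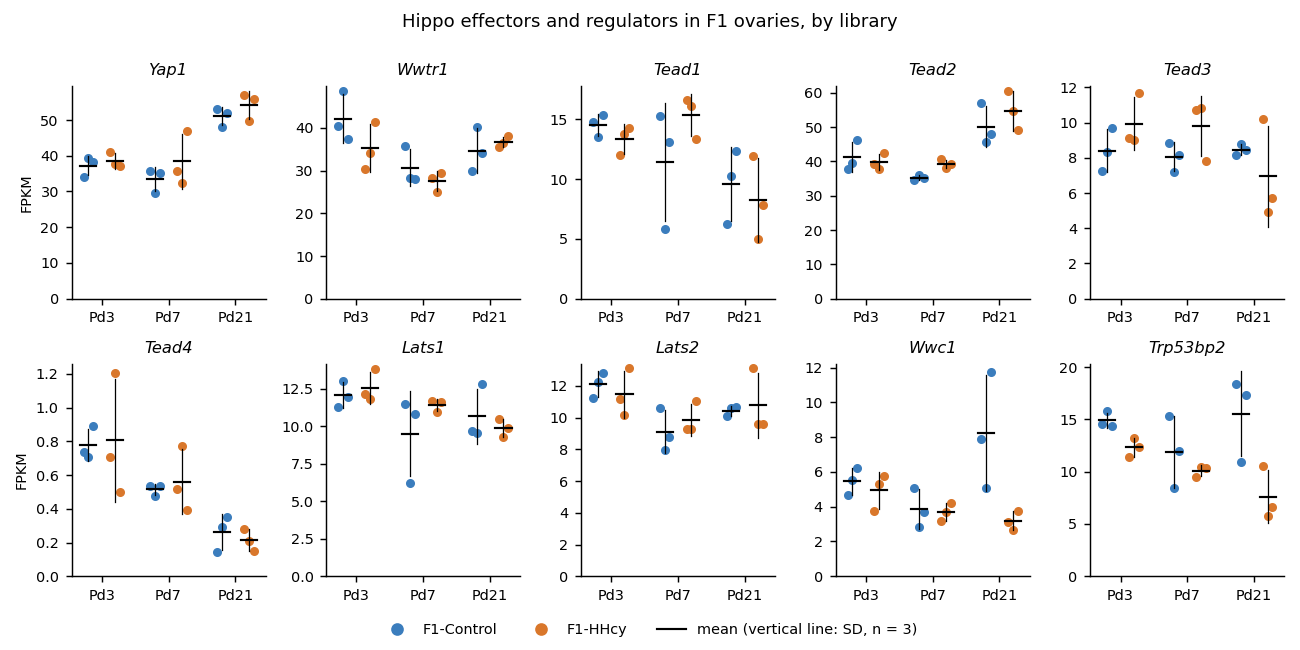
FPKM of each of the 10 members on the y axis (each panel has its own scale from 0) against postnatal day on the x axis, with 1 point per library, F1-Control in blue and F1-HHcy in orange, a horizontal line at the mean and a vertical line for the SD (n = 3). Yap1 and Tead2 stand highest at Pd21 on both diets, and the groups separate at Pd21 for Wwc1 and Trp53bp2.

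By the implied lengths, Tead2 supplied most of the TEAD transcripts in every group and Tead4 almost none. For Tead2 that length is 2359 bases, beside 4788 exon bases in GENCODE M21, and for Tead1 9905 beside 13570. The shares below therefore depend on the annotation. Tead2 (chr7:45215792-45233468), a TEAD gene known from early embryos and stem cells, made up between 60.5% and 78.5% of the summed TEAD FPKM as group means, with 35.3 ± 0.700 FPKM in F1-Control at Pd7 and 54.7 ± 5.76 FPKM in F1-HHcy at Pd21 (SD, n = 3). Like Yap1 it had its highest means at Pd21 on both diets, although the control libraries of Pd21 overlapped those of Pd3. Its exons overlap those of Cd37 on the other strand. Across all 18 libraries the Pearson correlation of Yap1 and Tead2 on the log2(FPKM + 1) scale was 0.84, and 0.15 once the group means were taken out, which describes libraries that share groups and batches.

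Tead1 (chr7:112679356-112906784) and Tead3 (chr17:28331671-28350805) followed at group means of 8.24 to 15.4 FPKM and 6.96 to 9.93 FPKM. Tead1 had its lowest group means at Pd21, with 6.28, 10.2 and 12.4 FPKM in controls and 11.9, 4.98 and 7.82 FPKM in F1-HHcy, while its Pd3 libraries lay between 12.0 and 15.3 FPKM and those of Pd7 between 5.86 and 16.7 FPKM. All neighbouring groups in the order of Tead1 and of Tead3 overlapped. Tead4 (chr6:128227143-128300813), the TEAD gene of the early trophoblast, reached 1 FPKM in only 1 library, F1-HHcy Pd3 replicate 2 with 1.21 FPKM. It stood at 0.778 ± 0.0969 FPKM in F1-Control at Pd3 and 0.213 ± 0.0655 FPKM in F1-HHcy at Pd21 (SD, n = 3). It therefore failed the filter of 1 FPKM in 3 libraries and is not among the 9 members tested below. In the fit without that filter its log2 fold change for diet lay between -0.05 and 0.03 on the 3 days.

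**Figure D2:**
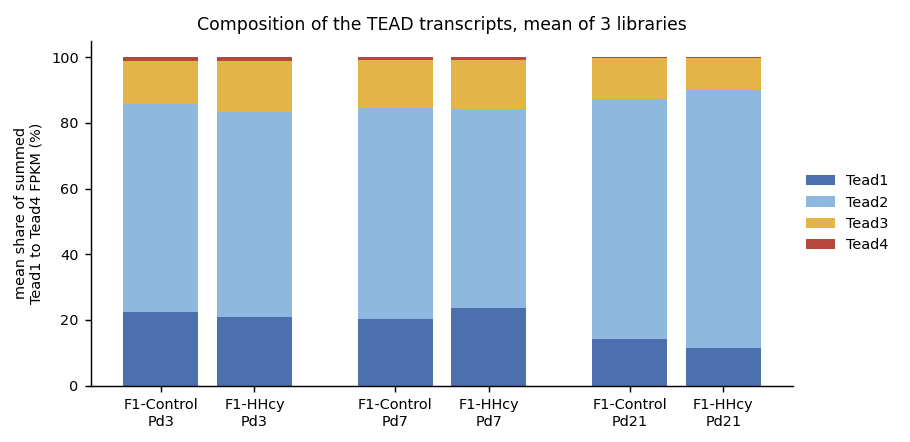
Stacked bars of the mean share, in percent of the summed Tead1 to Tead4 FPKM, of each TEAD gene on the y axis for the 6 groups on the x axis (mean of 3 libraries). Tead2 forms the largest block in each bar, from 60.5% in F1-HHcy at Pd7 to 78.5% in F1-HHcy at Pd21.

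The LATS kinases were expressed at near-equal levels. Lats1 (chr10:7681200-7716461) had group means between 9.51 and 12.6 FPKM and Lats2 (chr14:57689662-57746212) between 9.11 and 12.1 FPKM, with a mean ratio of Lats2 to Lats1 from 0.862 to 1.08. In the order of the 6 groups every pair of neighbours overlapped for both genes. Exons of Lats2 overlap those of Gm49361 on the same strand. The largest departure of Lats1 was in 1 library, F1-Control Pd7 replicate 2, with 6.24 FPKM beside 11.5 and 10.8 FPKM. The same library held the lowest Tead1 value of its group, 5.86 FPKM beside 15.3 and 13.1 FPKM, and 8 of the 9 members tested below were under the group mean in it, on the log2 scale. Its summed FPKM over all genes was 532003, against 400360 to 469733 in the other 17 libraries.

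Wwc1 was the lowest of the tested members in every group and, of these, had the largest ratio of its highest to its lowest group mean. Wwc1 (chr11:35838399-35980527) had 4.66, 5.51 and 6.20 FPKM in F1-Control at Pd3 and 3.74, 5.32 and 5.76 FPKM in F1-HHcy. At Pd7 it had 5.09, 2.81 and 3.71 FPKM against 3.19, 3.70 and 4.21 FPKM. The groups overlapped on both of these days. At Pd21 the control libraries had 7.90, 5.09 and 11.8 FPKM and the F1-HHcy libraries 3.14, 2.69 and 3.78 FPKM, so that every F1-HHcy library was below every control library. The mean of the controls was 2.58 times that of F1-HHcy.

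Trp53bp2 had the same order of the 6 group means as Wwc1, at a higher level. Trp53bp2 (chr1:182409167-182462436) had 14.6, 15.8 and 14.4 FPKM in F1-Control at Pd3 and 11.4, 13.2 and 12.4 FPKM in F1-HHcy, which did not overlap. At Pd7 the values were 15.3, 8.44 and 12.0 FPKM against 9.49, 10.5 and 10.3 FPKM. At Pd21 they were 18.4, 10.9 and 17.3 FPKM against 10.5, 5.75 and 6.58 FPKM, and the highest F1-HHcy library was just below the lowest control library. The mean of the controls on that day was 2.04 times that of F1-HHcy.

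Whether the maternal diet altered these transcripts was asked for each day with limma on log2(FPKM + 1), with Benjamini-Hochberg adjustment over all genes tested. At Pd3, 0 of the 9 tested members passed an adjusted p of 0.05, where 3.07% of 13277 genes did, and the limma-voom test on recovered fragments also called 0. The unadjusted p was under 0.05 for 1 member, against 22.4% of all genes, and the groups did not overlap for 1 member, against 27.9%. That member was Trp53bp2, with a log2 fold change (F1-HHcy against F1-Control) of -0.26 (SE 0.11, 95% interval -0.50 to -0.01, limma adjusted p = 0.206). The other 8 log2 fold changes lay between -0.25 and 0.22, and the median of the 9 was -0.07 beside -0.03 for all genes. The 95% interval was -0.19 to 0.29 for Yap1 and -0.60 to 0.09 for Wwtr1, so that changes of 1 log2 unit in these genes lay outside the intervals.

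At Pd7 the diet called far more genes over the whole transcriptome, 11.9% of 13299, yet 0 of the 9 members, and limma-voom again called 0. The count at an unadjusted p under 0.05 was also 0, against 31.5% of all genes, and groups did not overlap for 1 member, Tead2, against 39% of all genes. Its log2 fold change was 0.15 (95% interval -0.13 to 0.43, limma adjusted p = 0.426). The largest value belonged to Tead1 at 0.49 (95% interval -0.15 to 1.12, limma adjusted p = 0.262). It rested on F1-Control Pd7 replicate 2, without which it was 0.10, and the 0.28 of Lats1 was 0.03 without that library. The median of the 9 members was 0.15 beside 0.00 for all genes, and 0.03 without the same library or without F1-HHcy Pd7 replicate 3.

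At Pd21 the regulators had the largest estimates, and the roles were not compared by a test. The 7 effectors, TEAD factors and kinases tested had log2 fold changes from -0.30 (Tead3) to 0.13 (Tead2), each with a limma adjusted p of 1.00. With 1 library left out, Tead3 reached -0.58 and Tead1 -0.51 (both without F1-HHcy Pd21 replicate 1), and Tead1 was 0.05 without F1-HHcy Pd21 replicate 2. The 95% intervals of Tead3 (-0.85 to 0.24) and Tead1 (-0.95 to 0.50) overlapped those of both regulators. The log2 fold change of Wwc1 was -1.08 (SE 0.27, 95% interval -1.69 to -0.47, limma adjusted p = 0.117) and that of Trp53bp2 -0.95 (SE 0.26, 95% interval -1.54 to -0.36, limma adjusted p = 0.173). Neither passed the adjusted threshold, where 2.23% of 13350 genes did, all of them lower in F1-HHcy, and limma-voom called 0 of the 9 members as well. Both met the looser rule of the volcano plots in the study (no adjustment of the p, a threshold of 0.05, and a size over 0.58 on the log2 scale), as 5.14% of all genes did. They were also the 2 of 9 members whose groups did not overlap, against 10.5% of all genes, and the 2 with an unadjusted p under 0.05, against 6.85%. Because the study chose both for its Pd21 heatmap from these same samples, these counts are not independent evidence of an excess among the members.

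The calls for both regulators at Pd21 turned on the fit and on single libraries. With all 18 libraries in 1 model, which shares the spread of the earlier days, the adjusted p was 0.00980 for Wwc1 and 0.0153 for Trp53bp2. Without F1-Control Pd21 replicate 2, the control library with the lowest values of both genes, Wwc1 had a log2 fold change of -1.35 (limma adjusted p = 0.0437) and Trp53bp2 one of -1.17 (limma adjusted p = 0.121). Across the libraries left out in turn, the value ran from -1.35 to -0.82 for Wwc1 and from -1.18 to -0.79 for Trp53bp2.

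**Figure D3:**
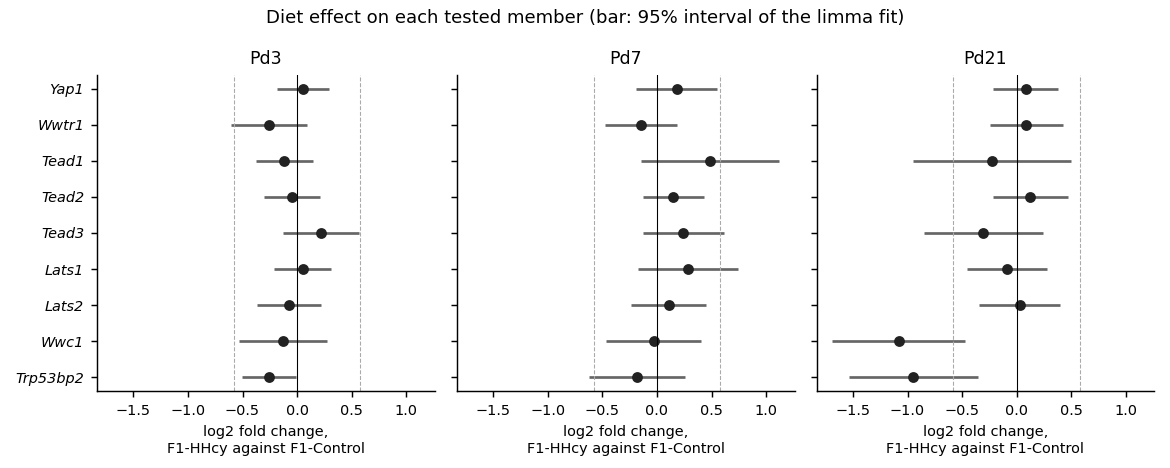
Log2 fold change of F1-HHcy against F1-Control on the x axis for the 9 tested members on the y axis, at Pd3, Pd7 and Pd21 (points, limma estimates on log2(FPKM + 1); bars, 95% intervals; dashed lines, 0.58 in either direction). Wwc1 at -1.08 and Trp53bp2 at -0.95 are the only points beyond a dashed line, both at Pd21.

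Markers of oviduct and surface epithelium moved with both regulators at Pd21. The summed FPKM of 10 oviduct epithelium markers was 150 to 645 in the controls and 34.3 to 68.0 in F1-HHcy. By limma, 5 of the 10 fell past the adjusted threshold, where 2.23% of all genes passed. Ovgp1, the secreted oviduct glycoprotein, had 206 ± 164 FPKM against 1.19 ± 0.867 FPKM (SD, n = 3). The 12 multiciliated cell markers summed to 152 to 373 FPKM against 88.2 to 119 FPKM, and 7 of the 11 tested fell. Among them was the ciliogenesis factor Foxj1 (56.4 ± 39.8 FPKM against 0.354 ± 0.0978 FPKM). Foxj1 held at most 0.441 FPKM in F1-HHcy and passed the filter of 1 FPKM only through the control libraries, so that a difference was built into its selection. The 10 surface epithelium markers summed to 425 to 560 FPKM against 147 to 290 FPKM, with 1 of 10 past the threshold, Krt18. No marker of these 3 lists was at 0 in every library of a group.

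Both regulators were high in the Pd21 libraries with high oviduct markers. F1-Control Pd21 replicate 2 had the lowest oviduct sum of the controls, 150 FPKM, and also the lowest Wwc1 and Trp53bp2. All 6 libraries stood in the same order by Wwc1 as by the oviduct sum, while Trp53bp2 changed places with it once within each diet. On the log2(FPKM + 1) scale, over the 6 libraries of Pd21 the Pearson correlation with the oviduct sum was 0.99 for Wwc1 and 0.93 for Trp53bp2, and for the other 8 members it lay between -0.57 (Wwtr1) and 0.60 (Lats1). Other sums gave high values at Pd21 too, for Wwc1 and Trp53bp2 in this order. They were 0.89 and 0.90 with surface epithelium, 0.85 and 0.93 with multiciliated cells, 0.84 and 0.83 with adipocytes, and 0.70 and 0.70 with stroma. With granulosa markers they were -0.50 and -0.64. With the oviduct sum over all 18 libraries the correlation was 0.86, 0.74 and 0.12 for Wwc1, Trp53bp2 and Yap1. Before Pd21 the group means of Ovgp1 were only 0.907 to 5.11 FPKM, so the sums of those days came mostly from other markers of the list. These values describe libraries that share group, batch and depth, and the part of the marker tissue in the lower Wwc1 and Trp53bp2 was not tested.

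**Figure D4:**
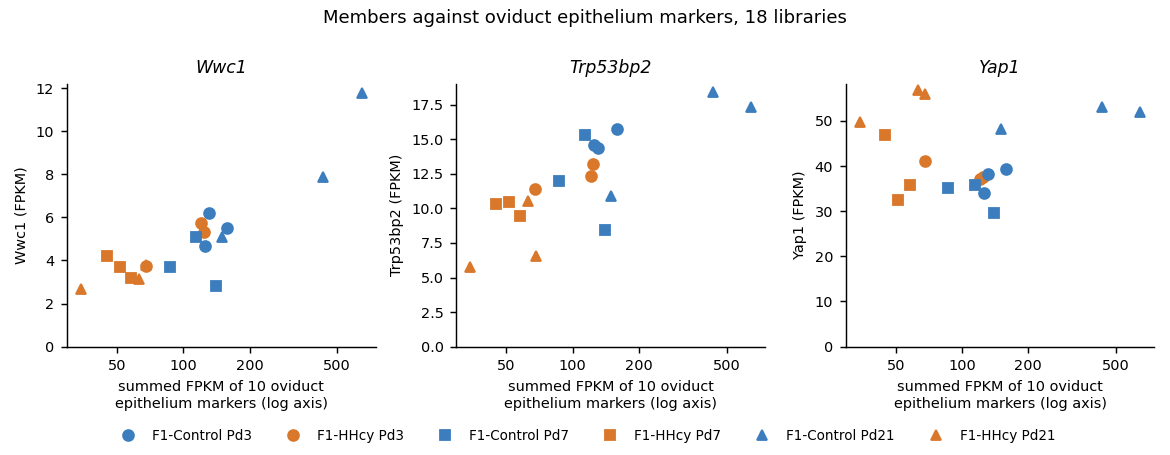
FPKM of Wwc1, Trp53bp2 and Yap1 on the y axes against the summed FPKM of 10 oviduct epithelium markers on the x axis (log axis), with 1 point per library, coloured by diet (blue F1-Control, orange F1-HHcy) and shaped by day. At Pd21 the controls with sums of 150 to 645 FPKM hold the higher Wwc1 and Trp53bp2 values, and Yap1 shows no such order (r = 0.12 over the 18 libraries).

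The surface epithelium markers were lower at Pd7 as well, where the estimates for the regulators were smaller than at Pd21. At Pd7 that list summed to 546 to 908 FPKM in controls and 242 to 457 FPKM in F1-HHcy. Past the limma threshold were 6 of the 10 markers, all lower, where 11.9% of all genes passed in either direction. The oviduct list, which shares Krt7 with the surface list, summed to 86.6 to 140 FPKM against 44.9 to 57.8 FPKM. Its markers did not all move alike. Epcam had 34.8 ± 11.2 FPKM against 10.8 ± 2.37 FPKM, while Ovgp1 went the other way, at 0.907 ± 0.117 FPKM against 5.11 ± 6.10 FPKM (SD, n = 3). Wwc1 on that day had a log2 fold change of -0.03 (95% interval -0.46 to 0.40) and Trp53bp2 one of -0.18 (95% interval -0.62 to 0.25).

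How the members changed over the first week was asked within batch 1, in 1 limma model of its 12 libraries. In F1-Control all 9 tested members had lower means at Pd7 than at Pd3, with a median log2 fold change of -0.35 beside -0.06 for all 13998 genes, and 8 of the 9 did after median-ratio rescaling of the libraries. None of them passed the adjusted threshold, where 12.6% of all genes did, limma-voom called 0, and 3 had an unadjusted p under 0.05, against 31.6%. These were Wwtr1 at -0.45 (SE 0.15, limma adjusted p = 0.0650), Lats2 at -0.38 (SE 0.14, adjusted p = 0.0814) and Wwc1 at -0.43 (SE 0.19, adjusted p = 0.148). Groups did not overlap for 3 of the 9, Wwtr1, Tead2 and Lats2, against 38.6% of all genes. Without F1-Control Pd7 replicate 2 the median was -0.13, and without F1-Control Pd7 replicate 1 it was -0.50 and Wwtr1, Lats2 and Trp53bp2 passed.

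In F1-HHcy, 8 of the 9 members had lower means at Pd7 than at Pd3, with a median of -0.12 beside -0.04 for all genes, and 5 of the 9 did after median-ratio rescaling. Again 0 passed, by limma or limma-voom, where 4.44% of genes did, and 1 had an unadjusted p under 0.05, against 25.1%. That was Wwtr1 at -0.34 (SE 0.15, limma adjusted p = 0.182), whose groups did not overlap, as those of Lats1 and Trp53bp2 did not, against 30.8% of all genes. The diet effect at Pd7 minus that at Pd3, tested in the same model, passed for 0 of 9 members, against 0.514% of genes, with 0 at an unadjusted p under 0.05 and 0 by limma-voom. The 9 values ran from 0.03 (Tead3) to 0.60 (Tead1), and 8 of them were positive after median-ratio rescaling. Without F1-Control Pd7 replicate 2 the value of Tead1 was 0.22, and those of Tead3, Lats1, Wwc1 and Trp53bp2 were negative, at -0.04, -0.02, -0.06 and -0.13. Without F1-HHcy Pd7 replicate 3 that of Yap1 was -0.02.

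The diet effect at Pd21 was set against those of the earlier days in 1 limma model of all 18 libraries, where each diet effect lies within its batch. For Pd21 minus Pd7, 0 of 9 members passed, where 3.89% of 14607 genes did, and 2 had an unadjusted p under 0.05, against 19.4%, and met the volcano rule, against 15.3%. The difference was -1.05 for Wwc1 (SE 0.33, 95% interval -1.75 to -0.36, adjusted p = 0.0897) and -0.76 for Trp53bp2 (SE 0.31, 95% interval -1.41 to -0.12, adjusted p = 0.182). For Pd21 minus Pd3, 0 passed, where 4.59% of genes did, and the same pair had an unadjusted p under 0.05, against 16.1%, and met the volcano rule, against 13%, with -0.95 for Wwc1 (adjusted p = 0.132) and -0.69 for Trp53bp2 (adjusted p = 0.266). Limma-voom called 0 members in both. As the study chose this pair for Pd21 from these same samples, these counts are not independent evidence either. Without F1-Control Pd21 replicate 2 Wwc1 passed in both, at -1.32 (adjusted p = 0.0260) and -1.22 (adjusted p = 0.0348). Without F1-HHcy Pd21 replicate 1 Trp53bp2 passed for Pd21 minus Pd7 (adjusted p = 0.0414), as did Tead3 at -0.82 (adjusted p = 0.0338).

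The rest of the pathway was read from 4 lists. Of 12 core kinases and their adaptors, such as Stk3, Stk4, Sav1 and Nf2, 0 passed the adjusted threshold for diet on any day by limma. Their median log2 fold change stood at -0.01, 0.26 and -0.01 on the successive days, beside -0.03, 0.00 and -0.01 for all genes. Over the first week in F1-Control, 2 of them fell, Map4k4 by 0.58 (limma adjusted p = 0.0433) and Stk38l by 0.42 (limma adjusted p = 0.0495), both kinases that can phosphorylate components of the cascade, in a comparison where 12.6% of all genes passed. The call of Stk38l was lost after median-ratio rescaling (adjusted p = 0.0681) and without each of the 6 libraries, and that of Map4k4 without 5 of them. Of 23 tested junction and polarity proteins upstream of the kinases, 0 of them passed for diet on any day. At Pd21 their values were negative for 22 of the 23 (18 after median-ratio rescaling) with a median of -0.24, and the most abundant, Ctnna1 (alpha-catenin, 68.8 FPKM in controls), had -0.17 (95% interval -0.49 to 0.15). The same list had a median of 0.01 at Pd3 and 0.00 at Pd7.

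Among LATS inhibitors and YAP partners, 2 of the 15 tested rose for diet at Pd7, where 11.9% of all genes passed in either direction, and 0 passed at Pd3 or Pd21. Vgll3, a co-factor that binds TEAD proteins, had 0.475, 0.352 and 0.618 FPKM in F1-Control and 1.99, 1.82 and 3.27 FPKM in F1-HHcy at Pd7. It passed the filter only through the F1-HHcy libraries, and its limma adjusted p was 0.00678 with the filter and 0.0676 without it. Rassf6, a RASSF family scaffold, had 2.14 and 3.95 FPKM (log2 fold change 0.67, SE 0.19, limma adjusted p = 0.0458). Its call was lost with a pseudocount of 0.1, without the filter, with all 18 libraries in 1 model, by limma-voom and without any of 5 single libraries, at adjusted p of 0.0525 to 0.162. Trp73, a p53 relative that binds YAP and is also known as a factor of multiciliated cells, had 3.42, 1.62 and 2.15 FPKM in the controls at Pd21 and 0.741, 0.480 and 0.538 FPKM in F1-HHcy. It passed the filter only through the control libraries and had a limma adjusted p of 0.0533, with 4.46e-04 to 0.206 under the alternatives.

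Transcripts listed as YAP and TEAD targets moved in both directions at Pd7, and a different set passed on each day. The list of 22 also holds the members Lats2 and Wwc1, and Myc and Ccnd1 were in the study's heatmap. At Pd3, 2 of 17 tested rose by limma, where 3.07% of all genes passed. Ccn2, a secreted matricellular protein and the most used readout of YAP activity, had 6.09 ± 0.957 FPKM in F1-Control and 23.5 ± 11.7 FPKM in F1-HHcy (SD, n = 3; log2 fold change 1.69, SE 0.32, limma adjusted p = 0.0411). Myc, a growth transcription factor, had 5.79 and 16.0 FPKM (log2 fold change 1.26, SE 0.23, limma adjusted p = 0.0392). With the libraries left out in turn, both lost the call without F1-HHcy Pd3 replicate 1 and without each control library. Limma-voom gave adjusted p = 0.0587 for Ccn2 and 0.0562 for Myc. Both calls were also lost without the filter (limma adjusted p = 0.141 for Ccn2 and 0.134 for Myc) and with the replicate number as a block (0.112 for both). Of 9 stroma and fibroblast markers 4 rose on the same day (summed FPKM 767 to 1040 in controls and 1380 to 1698 in F1-HHcy), as did 2 of 7 granulosa markers (213 to 225 against 281 to 535). All 7 erythroid markers fell (3941 to 11288 against 784 to 1108). Among other lists, the sums of oocyte markers (790 to 1024 against 1261 to 1799) and endothelial markers (42.1 to 59.2 against 75.7 to 105) were higher in F1-HHcy without overlap. The oocyte list was divided, with 6 positive and 6 negative log2 fold changes. Sums of macrophage markers (34.6 to 41.4 against 46.3 to 51.2) and adipocyte markers (1.28 to 3.99 against 4.29 to 13.7) were also higher without overlap. That of oviduct markers was lower (125 to 159 against 67.8 to 124). The part of these cells in both target levels was not tested.

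At Pd7, 2 of 18 targets rose and 2 fell, where 11.9% of all genes passed. Ccn2 had 11.8, 7.21 and 15.0 FPKM in F1-Control and 51.2, 52.7 and 53.8 FPKM in F1-HHcy (log2 fold change 2.17, SE 0.22, limma adjusted p = 0.00129), a call kept under each alternative run. Myc was higher by 1.55 (SE 0.29, adjusted p = 0.0115). Ccnd1, which encodes cyclin D1 of the cell cycle's G1 phase, fell by 1.04 (SE 0.20, adjusted p = 0.0119), and Birc5, which encodes the mitotic protein survivin, fell by 0.74 (SE 0.15, adjusted p = 0.0153). All 3 calls were lost without the filter. That of Birc5 was also lost without each F1-HHcy library (adjusted p = 0.0513 to 0.0636), that of Ccnd1 without F1-HHcy Pd7 replicate 1 (0.0513), and that of Myc without F1-HHcy Pd7 replicate 3 (0.0562) or F1-Control Pd7 replicate 2 (0.0615). Opposite directions within the list left its median at 0.09 beside 0.00 for all genes. Along with Ccn2, 7 of 8 theca and steroidogenic markers rose at Pd7 (summed FPKM 364 to 564 in controls and 1358 to 1389 in F1-HHcy). Other lists moved too. Of 10 granulosa markers 3 rose (summed FPKM 262 to 541 against 545 to 929), and of 12 oocyte markers 2 rose and 6 fell. The endothelial sum was higher without overlap (88.1 to 99.0 against 100 to 113). Sums of macrophage markers (47.2 to 68.7 against 38.6 to 45.9) and erythroid markers (925 to 5791 against 287 to 502) were lower without overlap. So were the surface epithelium and oviduct sums given above. The part of these cells in the level of Ccn2 was not tested.

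At Pd21, 0 targets rose and 2 of 19 fell, where 2.23% of all genes passed. F3, tissue factor, had 16.8, 14.2 and 17.3 FPKM in F1-Control and 6.31, 4.76 and 5.13 FPKM in F1-HHcy (log2 fold change -1.42, SE 0.16, limma adjusted p = 0.00423). Ccnd1 had 16.8 and 6.53 FPKM (log2 fold change -1.21, SE 0.23, adjusted p = 0.0330). Both calls were lost without F1-Control Pd21 replicate 1 and without replicate 3, at adjusted p of 0.124 and 0.109 for F3 and 0.458 and 0.355 for Ccnd1. That of Ccnd1 was also lost without each F1-HHcy library and without the filter (limma adjusted p = 0.159). Myc had a log2 fold change of -0.16 (95% interval -0.87 to 0.55) and did not pass. Neither did Ccn2, at 14.0, 46.3 and 36.8 FPKM in controls and 22.0, 21.4 and 47.4 FPKM in F1-HHcy (log2 fold change -0.03, 95% interval -1.06 to 0.99). The median of the list was -0.16 beside -0.01 for all genes, and the oviduct and ciliated markers given above moved on the same day.

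**Figure D5:**
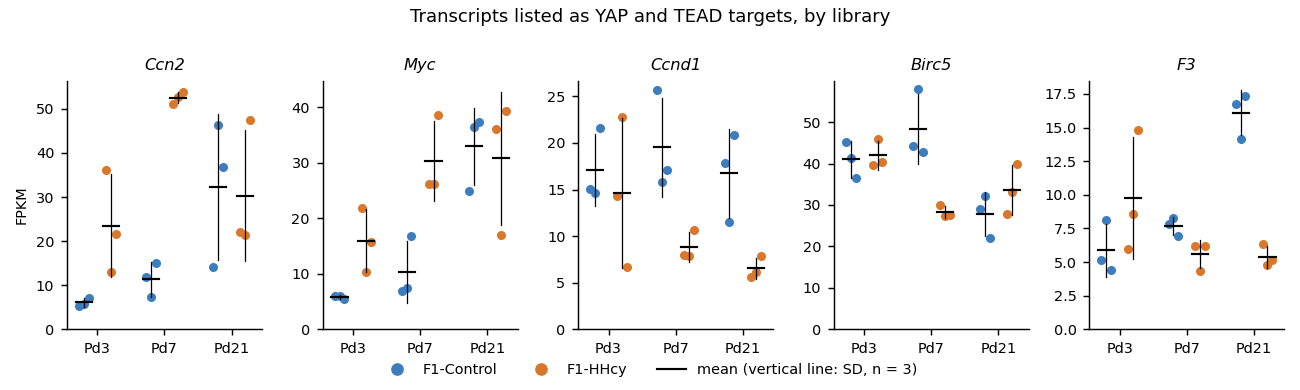
FPKM of 5 transcripts listed as YAP and TEAD targets on the y axis (each panel has its own scale from 0) against postnatal day on the x axis, with 1 point per library, F1-Control in blue, F1-HHcy in orange, a horizontal line at the mean and a vertical line for the SD (n = 3). Ccn2 at Pd7 lies at 51.2 to 53.8 FPKM in F1-HHcy and 7.21 to 15.0 FPKM in controls, and F3 separates at Pd21.

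The members differed in which other members they resembled. Of the 45 pairs, Wwc1 and Trp53bp2 had a Pearson correlation of log2(FPKM + 1) of 0.80 over the 18 libraries and 0.65 after the group means were taken out. Tead1 and Lats1 had 0.75 and 0.78, and both of these transcripts are long, at 9905 and 7215 bases by the length the deposited values imply. Tead1 and the shorter Tead3, at 3005 bases, had 0.72 and 0.66, and the part of length was not tested. Lats1 and Wwc1 had 0.47 and 0.68, and Tead3 and Lats2 0.40 and 0.65. Yap1 and Wwtr1, the paired co-activators, had 0.24 and 0.14. All such values describe libraries that share groups, batches and depth.

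Across all genes, the profile over 18 libraries most like that of Wwc1 was that of Cdcp1 (r = 0.92), followed by Rbm24 (0.92) and by Muc1 (0.90), which encodes an epithelial mucin. For Trp53bp2 the closest were Myo1d (0.91), Kif27 (0.91) and Hspa2 (0.90). Yap1 was most like Cbx2 (0.96), Tob2 (0.96) and Tbc1d22b (0.96), and Wwtr1 like Wasl (0.92), Rab14 (0.91) and Rnf138 (0.91). For the TEAD genes the closest were Afap1 (0.97), Akap13 (0.96) and Atp11a (0.95) for Tead1, Fam222a (0.93), Dexi (0.90) and Zfp444 (0.89) for Tead2, Tns2 (0.92), Sh3bp1 (0.92) and Arhgef2 (0.91) for Tead3, and Trank1 (0.88), Prickle4 (0.88) and Thbs3 (0.87) for Tead4. Lats1 was most like Pom121 (0.92), Hcfc1 (0.92) and N4bp2 (0.91), and Lats2 like Tmcc1 (0.92), Rnf216 (0.89) and Rapgefl1 (0.89). As the highest of the correlations with all genes over 18 points, these values are a description.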

How the data were processed

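The authors sequenced stranded poly-A libraries of ovarian RNA and deposited 1 value per gene symbol and library, without naming the unit. The deposited values were read as FPKM, because dividing out a length for each gene and a factor for each library left whole fragments (tolerance 0.02) in all 27294 genes above 0 in at least 3 libraries. Those fragments gave 33630304 to 39398922 per library. The submitters' processing notes name FastQC 0.11.9, Trimmomatic 0.39, STAR 2.7.9a, featureCounts 2.0.1, Subread and DESeq2 1.36.0 with GRCm38/mm10, without roles. The annotation is not given in the sources used here.

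A gene entered a fit if 3 or more of its libraries held 1 FPKM or more, and was tested on log2(FPKM + 1) with limma 3.58.1 (eBayes with trend) in R 4.3.3. A fold change on this scale understates that of low genes. Passing means a Benjamini-Hochberg adjusted p under 0.05 over all genes tested. Diet was tested per day on 6 libraries, Pd7 against Pd3 on the 12 libraries of batch 1, and differences involving Pd21 on all 18. The fits were tested on simulated data. Alternatives were a pseudocount of 0.1, no filter, median-ratio rescaling, the study's volcano criterion, a replicate block, all 18 libraries in 1 model, each library left out, and, added after seeing the data, limma-voom on recovered fragments. Positions and promoters are from RefSeq (GRCm38.p6), and exon overlaps from GENCODE M21. Figures were drawn with matplotlib 3.10.9 in Python 3.11.15, and tables made with pandas 2.3.3 and numpy 2.4.6.

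The members, pathway lists and marker lists were chosen with earlier results of these data known. Named genes were every member, the genes of each pathway list that passed (at most 4 per comparison), its most abundant gene, and the 3 genes most correlated with each member. A few others (Trp73 at Pd21, targets on days they did not pass, and single markers) were named after their values were seen.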

Additional observations from a re-analysis of the deposited data

Results flagged for a closer look

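For no member did the diet effect differ between days at an adjusted p under 0.05, and 5 differences among the other pathway genes did, each by the interaction term of the limma model of all 18 libraries. For Pd21 minus Pd7, 1 of 16 LATS inhibitors and YAP partners passed, and of 19 targets 1 was lower and 1 higher. In that comparison 3.89% of all genes passed. For Pd21 minus Pd3 it was 1 of the 16 and 1 of the 19, against 4.59%. Of the 12 kinases and adaptors and the 23 junction and polarity proteins, 0 passed in either. The diet effect on Trp73 was lower at Pd21 than at Pd7 by -1.50 (SE 0.24, adjusted p = 9.21e-04) and lower than at Pd3 by -1.17 (SE 0.24, adjusted p = 0.00693), and its control libraries held at most 0.151 FPKM at Pd3 and Pd7 and 1.62 to 3.42 FPKM at Pd21. Trp73 entered the model only through the 3 control libraries of Pd21, no other library holding 1 FPKM, so that a difference was built into its selection. By limma-voom its adjusted p was 0.0197 and 0.124. The diet effect on Ccn2 at Pd21 minus that at Pd7 was -2.21 (SE 0.57, adjusted p = 0.0382). For Birc5 the same difference was 1.01 (SE 0.23, adjusted p = 0.0151). For F3 the diet effect at Pd21 minus that at Pd3 was -2.02 (SE 0.34, adjusted p = 0.00170). In these differences the later day is also another batch, and the oviduct and multiciliated markers differed between the diets at Pd21. Their part in these differences was not tested.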

How the results depend on the processing

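The count of members past the test was 0 in each of the 8 comparisons. Under the study's volcano criterion it was 2 for diet at Pd21, 2 for Pd21 minus Pd7 and 2 for Pd21 minus Pd3, each time Wwc1 and Trp53bp2. With all 18 libraries in 1 model it was 2 for diet at Pd21. With the replicate number as a block it was 1 for diet at Pd21 (Wwc1, adjusted p = 0.0442), and the block changed no other count. The deviations of same-numbered libraries from their group means had correlations of -0.338 to 0.0872. At Pd7, F1-HHcy replicates 1 and 3 correlated most with the control library of the same number. With 3 libraries a group these values cannot decide whether the numbers pair the libraries. With each library left out in turn the count ran from 0 to 1 for diet at Pd21, from 0 to 3 for Pd7 against Pd3 in F1-Control, from 0 to 2 for Pd21 minus Pd7 and from 0 to 1 for Pd21 minus Pd3. It stayed at 0 for the other 4 comparisons, and under the pseudocount of 0.1, no filter, median-ratio rescaling and limma-voom for all 8. Of the single values of named genes under alternatives, 2533 kept their side of the threshold, 130 lost it and 38 gained it, and 0 were reversed. Why these calls moved was not tested. With 3 libraries a group, the widest 95% interval of a member reached 0.40 log2 units to either side at Pd3 (Wwc1) and 0.72 at Pd21 (Tead1).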
